A study of Mus musculus with 16 samples.

Results

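Testes of mice with a conditional knockout of Ythdc2 (cKO) were compared between postnatal day 14 (P14) and day 16 (P16). The comparison rests on 6 of the 16 RNA libraries of the series, 3 per stage, taken by their labelled genotype and stage and by no measured value. Per the labels, control and cKO mice of both stages had received tamoxifen at 10 mg/ml on P12 and on P13. P16 therefore lies longer after the last dose than P14. Age and time since tamoxifen cannot be told apart in this comparison. Tamoxifen is the usual trigger of an inducible Cre recombinase. The labels used here name neither the Cre driver nor the deleted part of the gene, and they do not say whether a library came from 1 animal or from pooled animals. P-values therefore measure the spread between libraries, which may be technical. The other 10 libraries serve only as a backdrop. They are 2 control libraries per stage, together with 2 libraries at P14 and 4 at P16 from mice labelled Cre control, whose alleles are not described further. The same tamoxifen treatment is listed for the Cre control samples.

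YTHDC2 is an RNA helicase with a YTH domain, a fold that binds N6-methyladenosine (m6A) in RNA. In germ cells it works with MEIOC and RBM46, partners known from the switch from mitotic divisions to meiosis, and it also binds the exonuclease XRN1. In the juvenile testis the first germ cells move through meiosis as a wave: spermatogonia replicate their DNA a last time, break and pair their chromosomes, and reach the pachytene stage, when many genes of the later sperm cell are switched on. A whole testis sampled on different days therefore changes in its mixture of cells. In such bulk RNA, fewer cells of a type and less RNA per cell cannot be told apart.

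The 6 cKO libraries held 14741293 to 26927274 reads on genes. Libraries 1 and 2 of each stage, and all controls, had ribosomal RNA removed with Ribo-Zero components ("the first kit"). Library 3 of each stage, and all Cre controls, were depleted with a NEBNext kit ("the second kit"). Each cKO library was therefore compared with libraries of its own kit. The column headers of Cre control libraries 2, 3 and 4 at P16 carry other codes than those shared by the remaining second-kit libraries. If these codes mark a separate run, a difference between runs enters the Cre control changes, which was not tested. After the kit was taken out, the first principal component held 85% of the variance and parted the stages, with P14 at -35.5, -18.3 and -32.9 and P16 at 26.2, 27.6 and 32.9 for libraries 1, 2 and 3. P14 library 2 lay nearest to P16. Markers of germ cells and Sertoli cells were expressed in all 6 libraries, while the sperm chromatin genes Prm2, Prm3 and Tnp2 had 0 CPM (the usual per-million unit: counts scaled to a common total of reads on genes) in each.

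Ythdc2 (ENSMUSG00000034653) itself was measured first. It stood at 28.7, 33 and 16.8 CPM in cKO libraries 1, 2 and 3 at P14, and at 20, 21.8 and 10.6 CPM at P16. Within each kit every P16 library lay below every P14 library. The change was -0.58 on the log2 scale (SE 0.08, limma adjusted p 7.8e-04), a 1.5-fold fall. Changes here and below are P16 minus P14 in log2(CPM + 0.5), which understates changes of low genes. Over the same 2 days Ythdc2 changed by 0.23 in controls and by 0.24 in Cre controls. The difference between the cKO change and theirs was -0.82 (SE 0.25) and did not pass (limma adjusted p 0.10).

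Of its partners, 2 rose. Meioc (ENSMUSG00000051455), whose protein binds YTHDC2 and is needed to stay in meiotic prophase, stood at 466, 598 and 238 CPM at P14 and at 924, 1070.1 and 457 CPM at P16. Both first-kit libraries at P16 lay above both at P14, and the second-kit pair ran the same way. Meioc rose by 0.92 (SE 0.09, limma adjusted p 1.7e-04). Its change was 0.31 in controls and -0.04 in Cre controls, and the difference from them was 0.79 (SE 0.18, limma adjusted p 0.047). Leaving out any 1 of the 6 cKO libraries ended that call (limma adjusted p 0.0789 to 0.186), as did a replicate block (0.12). Rbm46 (ENSMUSG00000033882), which encodes an RNA-binding protein, rose from 113, 135 and 71.8 CPM to 161, 186 and 101 CPM, a change of 0.49 (SE 0.07, limma adjusted p 0.0012). Xrn1 (ENSMUSG00000032410) stood at 70.6, 68.9 and 79.5 CPM and then at 70.3, 74.5 and 75.3 CPM, and its change of 0.01 did not pass (limma adjusted p 0.90).

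**Figure D1:**
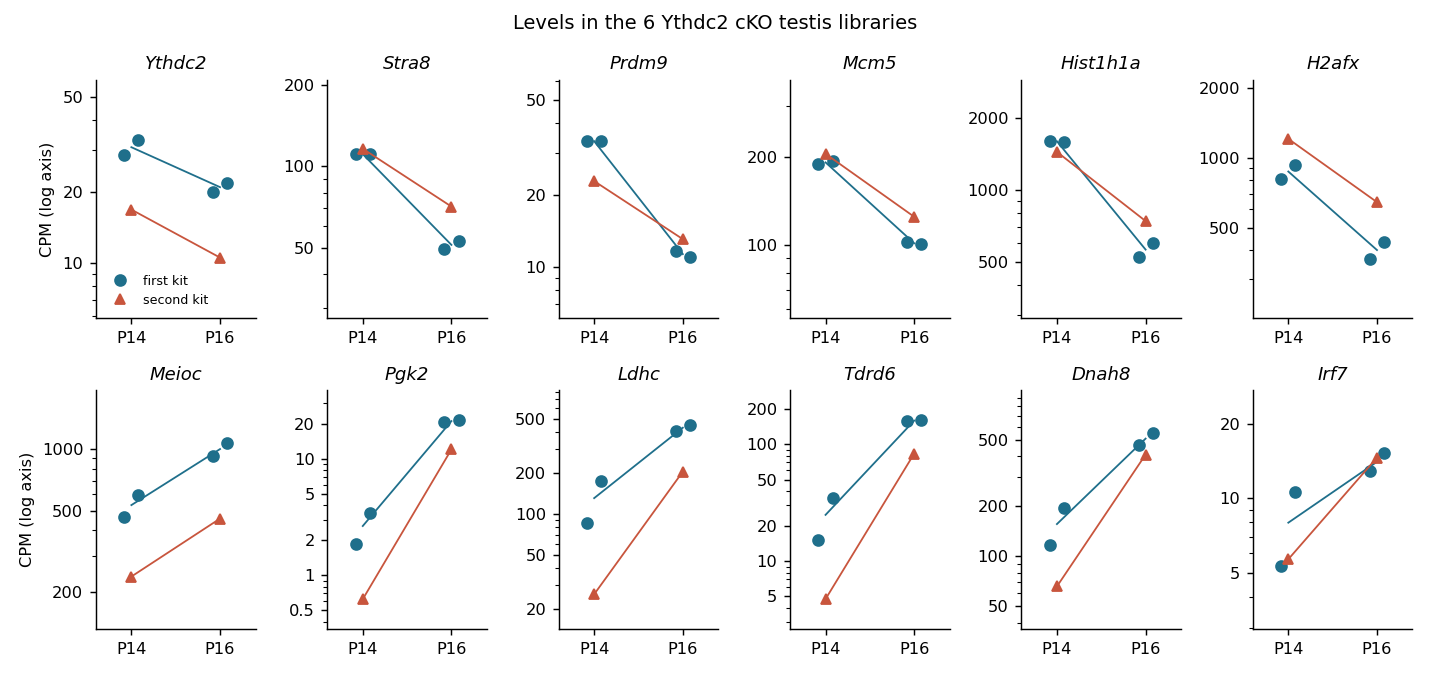
Levels of 12 genes in each of the 6 cKO libraries, in CPM on a log axis, at P14 and P16. Circles are first-kit libraries, triangles second-kit libraries, and lines join the stage means within a kit. Ythdc2, Stra8, Prdm9, Mcm5, Hist1h1a and H2afx end lower at P16 in both kits, and Meioc, Pgk2, Ldhc, Tdrd6, Dnah8 and Irf7 higher.

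Of 15273 genes tested, 6223 (40.7%) had an adjusted p under 0.05 and are termed called. At P16, 2779 genes (18.2% of those tested) were higher and 3444 (22.5%) were lower. Every count of list members below is to be read beside these shares. The directions differed in size. Among the higher genes 620 had risen at least 2-fold and 141 at least 4-fold, with a median change of 0.48. Among the lower genes 60 had fallen at least 2-fold and 0 at least 4-fold, with a median of -0.33. The median change of all tested genes was -0.035. Of the higher genes 84.9% also had a positive change in controls and 86.5% in Cre controls, beside 53.4% and 50.1% of all tested genes. Of the lower genes 61.8% and 83.8% had a negative change there. All 3 P16 libraries lay outside the range of the P14 libraries for 53% of the genes that were higher and 52.6% of those that were lower, beside 25.5% of all tested genes.

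The second kit gave a measurement that shares no library with the first. A fit on the 4 first-kit libraries alone called 1974 genes higher, and 97.2% of these were also higher in the second-kit pair. It called 1968 genes lower, of which 98.4% were lower in that pair. Of all tested genes, 44.5% were higher in the second-kit pair. The median change of the genes called higher was 0.61 in the first kit and 0.58 in the second. That of the genes called lower was -0.42 and -0.36. The count of lower genes was 2196 without P14 library 3 and 2277 without P16 library 3. Without P14 library 2 the calls were 3346 higher and 2611 lower, so that 56.2% of calls were higher in place of 44.7%.

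**Figure D2:**
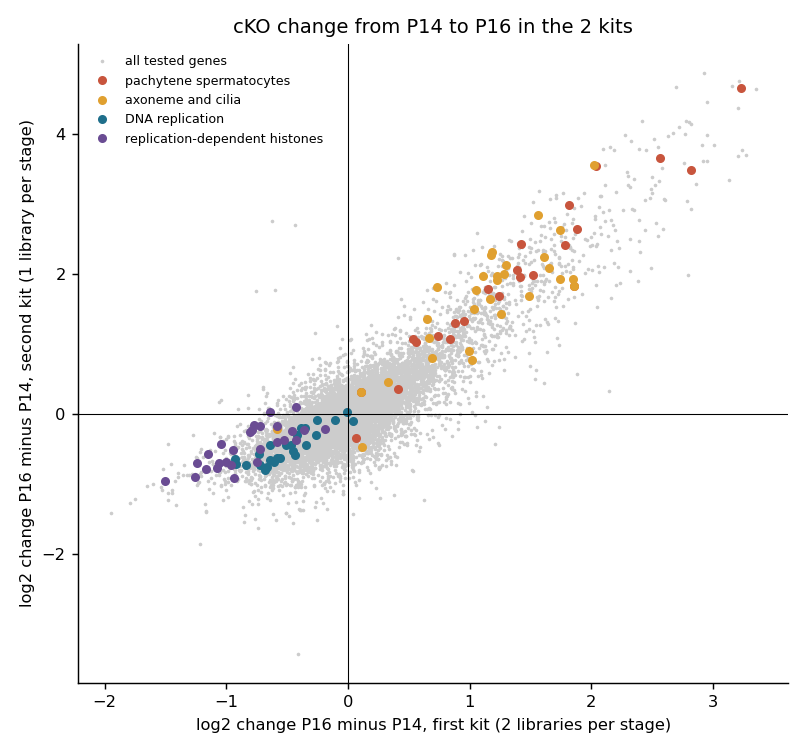
Log2 change from P14 to P16 of each tested gene in the first kit (horizontal, 2 libraries per stage) and in the second kit (vertical, 1 library per stage). Grey points are all 15273 tested genes and colours mark 4 gene lists. Most pachytene and axoneme genes lie above 0 in both kits, and most replication and histone genes below 0 in both.

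The 8 protein-coding genes with the largest rises, among those with a mean of at least 5 CPM at P16 and no overlap within a kit, were Cmtm2b, Pgam2, Adam3, 1700123L14Rik, 1700029F12Rik, Qrich2, Slc6a21 and Tcp10b. The limit of 5 CPM was set at P16, the stage where they are high, so genes low at P14 add no weight. Of the 8, Qrich2 alone had a mean above 5 CPM at P14 (10.6). Pgam2 (ENSMUSG00000020475), a phosphoglycerate mutase of glycolysis, went from 2.67, 9 and 1.06 CPM to 50.1, 50.4 and 41.5 CPM. Adam3 (ENSMUSG00000031553), a sperm surface protein, went from 1.86, 5.21 and 0.312 CPM to 35.3, 32.9 and 19.9 CPM. Qrich2 (ENSMUSG00000070331), needed for the sperm flagellum, went from 7.79, 21.9 and 2.06 CPM to 105, 101 and 74.3 CPM. In each of these genes P14 library 2 was the highest of the P14 libraries and still lay below every P16 library. The changes were 3.72 (SE 0.40), 3.71 (SE 0.35) and 3.57 (SE 0.42), with limma adjusted p-values of 2.6e-04, 1.5e-04 and 3.6e-04. The 8 genes ran from 3.41 for Tcp10b, one of a family of near copies whose reads may be shared, to 3.78 for Cmtm2b, which overlaps an annotated gene on the other strand. Their changes were positive in the control types too, from 3.02 (1700029F12Rik) to 3.73 (Adam3) in controls and from 3.17 (Tcp10b) to 4.05 (Qrich2) in Cre controls.

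The promoters of these genes were read from RefSeq (build GRCm38.p6), since MYBL1 is known as a factor of spermatocyte genes. A window ran from 250 bases before the start to 50 after it. Of the 16 genes with the largest rises or falls, 10 had a window. The MYB motif AACTGNC, searched on both strands, was in 3 of the 6 windows of rising genes and in 0 of the 4 of falling genes. The 3 windows with a match and, for contrast, that of Mei1, a falling gene of meiotic recombination, are shown 5′ to 3′ on the gene's strand with each match in capitals. They are chr8:104321977-104322276 (+) for Cmtm2b, chr11:5803747-5804046 (-) for Pgam2, chr13:97034313-97034612 (-) for 1700029F12Rik and chr15:82082226-82082525 (+) for Mei1.
Cmtm2b: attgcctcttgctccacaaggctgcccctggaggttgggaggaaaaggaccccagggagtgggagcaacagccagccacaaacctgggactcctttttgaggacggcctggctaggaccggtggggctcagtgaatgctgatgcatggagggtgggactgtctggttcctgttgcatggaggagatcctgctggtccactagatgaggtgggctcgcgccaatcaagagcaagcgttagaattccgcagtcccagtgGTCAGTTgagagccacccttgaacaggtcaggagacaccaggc
Pgam2: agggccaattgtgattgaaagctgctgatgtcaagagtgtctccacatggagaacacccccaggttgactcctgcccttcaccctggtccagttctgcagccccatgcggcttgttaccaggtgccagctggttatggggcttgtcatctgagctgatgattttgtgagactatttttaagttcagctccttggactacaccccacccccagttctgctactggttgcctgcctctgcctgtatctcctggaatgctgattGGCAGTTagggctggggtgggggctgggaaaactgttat
1700029F12Rik: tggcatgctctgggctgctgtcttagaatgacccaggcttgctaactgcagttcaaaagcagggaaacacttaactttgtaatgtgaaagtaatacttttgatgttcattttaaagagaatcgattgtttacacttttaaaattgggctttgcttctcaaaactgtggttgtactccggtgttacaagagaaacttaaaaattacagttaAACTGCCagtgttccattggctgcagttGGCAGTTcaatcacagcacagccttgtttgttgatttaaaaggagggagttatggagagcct
Mei1: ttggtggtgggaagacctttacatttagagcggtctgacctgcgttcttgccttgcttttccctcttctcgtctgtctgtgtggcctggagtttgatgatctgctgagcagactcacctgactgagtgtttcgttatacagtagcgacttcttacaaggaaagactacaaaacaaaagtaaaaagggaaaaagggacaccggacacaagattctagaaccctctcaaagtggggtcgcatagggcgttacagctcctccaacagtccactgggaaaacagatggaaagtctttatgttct

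Over all windows, the share with the MYB motif was larger in sets with larger rises. It was 12.8% of the 32851 windows in the table and 11.6% of the 14328 windows of tested genes. It was 15.0% for genes called higher, 21.5% for those at least 2-fold higher and 30.3% of 122 windows for those at least 4-fold higher. The 122 windows belong to 105 of the 141 genes at least 4-fold higher. For genes at least 2-fold higher, 530 windows belong to 439 of 620. Some genes thus count more than once and others have no window, in the other sets too. Windows of genes called lower held it in 9.45%, and those of genes at least 2-fold lower in 2 of 40 (5.0%). The X-box motif GTTGCCAT, known from RFX factors, was in 1.19% of windows of tested genes, in 5.09% of those at least 2-fold higher and in 0.738% of those called lower. In genes at least 4-fold higher it was in 3 of 122 windows (2.46%), so its share did not keep growing with the rise. The CRE motif TGACGTCA was in 2.94%, 1.32%, 3.28% and 2.46% of the same 4 sets. Neither was in any of the 40 windows of genes at least 2-fold lower. No motif of the 3 contains another, all were searched on both strands, and a match is a count of letters, not of bound factors. Mybl1, the gene of the first factor, rose from 113, 131 and 62.9 CPM to 171, 192 and 100.3 CPM. Its change was 0.61 (SE 0.07, limma adjusted p 2.7e-04), with 0.41 in controls and 0.35 in Cre controls.

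Pachytene spermatocyte genes rose together in the cKO testis. Of 27 listed, 23 passed the filter on low values, and of these 21 were called higher and 0 lower, with a median of 1.59. Their summed level went from 1316, 1980 and 806 CPM at P14 to 3298, 3686 and 2285 CPM at P16. Ldhc, the germ cell form of lactate dehydrogenase, went from 85.2, 177 and 25.6 CPM to 413, 453 and 205 CPM (change 2.20, SE 0.28, limma adjusted p 4.9e-04). Pgk2, the germ cell copy of phosphoglycerate kinase, went from 1.86, 3.44 and 0.624 CPM to 20.7, 21.5 and 12 CPM (change 3.04, SE 0.21, limma adjusted p 6.4e-05). In both genes every P16 library lay above every P14 library. Hspa2, a chaperone gene needed in late meiotic prophase, rose by 0.86 (SE 0.12), and Piwil1, the piRNA-binding protein of pachytene cells, by 1.61 (SE 0.19). Tekt2 and Spag6 changed by 0.17 and -0.07 and did not pass. The medians for the list were 1.35 in controls and 1.70 in Cre controls, and 0 members passed the test of the difference from them. Pgk2, Adam3, Tekt4 and Ccna1 had under 1 CPM in at least 1 P14 library and needed P16 to pass the filter. Such members add no weight to the count of 21.

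Genes of the sperm tail and head also rose, although their structures are built only after meiosis. Of 30 tested axoneme and cilia genes 26 were called higher and 0 lower, with a median of 1.42. Dnah8, an outer-arm dynein of the sperm tail, went from 117, 196 and 66 CPM to 468, 552 and 409 CPM (change 2.04, SE 0.21, limma adjusted p 2.1e-04). Its relative Dnah17 rose from 8.51, 25.7 and 4.37 CPM to 61, 62.6 and 56.7 CPM (2.53, SE 0.39). In both dyneins the stages did not overlap. Foxj1, the switch gene of motile cilia, stood at 2.12, 2.78 and 1.93 CPM and then at 1.59, 1.34 and 1.61 CPM, and its change of -0.46 did not pass (limma adjusted p 0.054). Of 23 acrosome and spermatid genes 6 passed the filter. The 6 were called higher: Zpbp2 by 2.50, Acrbp by 2.04, Zpbp by 1.84, Acr by 1.74, Odf2 by 0.71 and Spaca1 by 0.71. Each of the 6 had at least 1 CPM in every P14 library, the lowest value being 1.43 CPM for Zpbp2. The other listed acrosome genes lay below the filter, so the count speaks for these 6 only. Low members of the axoneme list can pass the filter through P16 alone and add no weight to its count. The axoneme medians were 1.67 in controls and 1.89 in Cre controls, and those of the acrosome genes 1.23 and 1.68.

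Regulators of the spermatocyte program rose by less. Of 17 transcription factors 11 were called higher and 1 lower, with a median of 0.56, beside 18.2% higher and 22.5% lower of all tested genes. Hsf5, a heat-shock factor relative of spermatocytes, went from 62.9, 86 and 44.3 CPM to 150.4, 169.8 and 123 CPM (change 1.23, SE 0.12, limma adjusted p 1.5e-04). Rfx2, a driver of cilia genes in the male germ line, rose by 0.84 (SE 0.12) and the bromodomain gene Brdt by 0.65 (SE 0.10). The X-linked Taf7l, a testis relative of a basal transcription factor subunit, fell from 251, 253 and 172 CPM to 156, 146 and 106 CPM (-0.72, SE 0.04, limma adjusted p 6.3e-05). Of 22 piRNA pathway genes 16 were called higher and 4 lower. Tdrd6, a component of the chromatoid body, had the largest change of that list, from 15.3, 34.5 and 4.74 CPM to 159, 161 and 83.4 CPM (3.18, SE 0.30, limma adjusted p 1.5e-04). The 4 that fell were Piwil4 (-0.77), Tex15 (-0.53), Btbd18 (-0.38) and Pnldc1 (-0.27). Piwil4 acts in fetal germ cells.

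**Figure D3:**
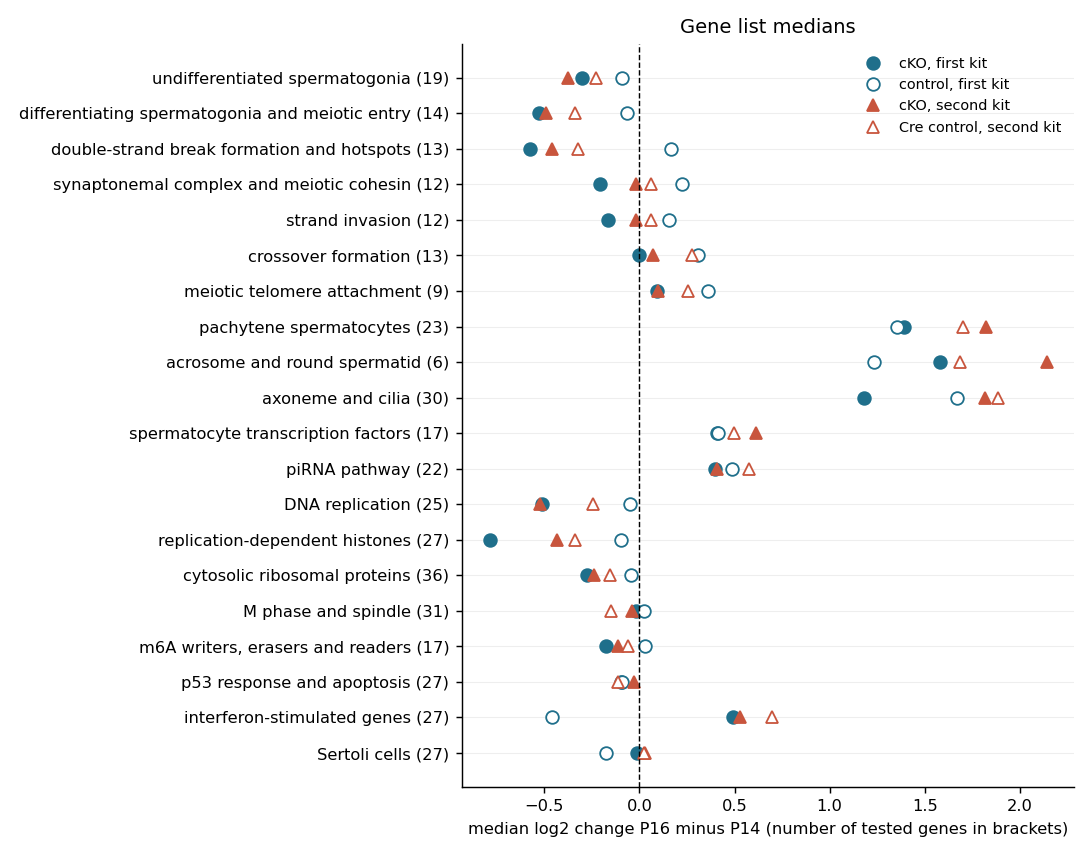
Median log2 change from P14 to P16 over the tested members of 20 gene lists, in cKO libraries of the first kit, the cKO pair of the second kit, controls (first kit) and Cre controls (second kit). The dashed line marks 0. Pachytene, acrosome and axoneme lists lie above 0 in all 4 series, while replication, histone and break formation lists lie further below 0 in cKO than in the control type of the same kit.

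The 8 largest falls among protein-coding genes, under the same limits with 5 CPM at P14, were in Mdga1, Ctcfl, Col28a1, Hist1h4n, Mei1, Hey1, Eppin and Hist3h2ba, with changes from -1.37 to -1.62. Here the limit was set at P14, again the stage where they are high. Mei1 (ENSMUSG00000068117), needed to make meiotic DNA breaks, went from 29.7, 31.8 and 39.3 CPM to 10.4, 10.9 and 16.6 CPM (-1.40, SE 0.08, limma adjusted p 6.3e-05). Ctcfl (ENSMUSG00000070495), the germ cell relative of the insulator gene Ctcf, went from 13.9, 14.1 and 15.7 CPM to 3.14, 4.64 and 6.49 CPM (-1.57, SE 0.16, limma adjusted p 2.0e-04). Hey1 (ENSMUSG00000040289), a Notch target gene, went from 24.1, 22.6 and 22.7 CPM to 6.86, 8.78 and 10.4 CPM (-1.38, SE 0.12, limma adjusted p 1.3e-04). The stages did not overlap in any of the 3. In controls these genes changed by 0.16, 0.03 and 0.06, and in Cre controls by -0.78, -1.17 and -0.55. Control type and kit cannot be told apart there. Of the 139 genes named by a change, a level or a call, 51 overlap a gene of GENCODE M21 on the other strand. Among them are Mdga1, Ctcfl, Cmtm2b, Adam3, Dnah8, Dnah17, Prdm9, Zcwpw1, Ccdc36, Syce2, Tex11, Ccna2, Id4, Atr, Igf2bp3, Irf7, Prom1 and Smpd3. Whether reads were counted by strand is not given in the sources used here, so reads of such neighbours may be mixed.

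Genes of differentiating spermatogonia and meiotic entry fell. Of 14 tested genes of differentiating spermatogonia and meiotic entry 0 were called higher and 12 lower, with a median of -0.52. Among all tested genes 18.2% were called higher and 22.5% lower. Stra8, which responds to retinoic acid and opens meiosis, went from 111, 111 and 116 CPM to 49.4, 53.1 and 71 CPM (-0.98, SE 0.08, limma adjusted p 9.2e-05). The receptor gene Kit went from 155, 144 and 165 CPM to 106, 106 and 117 CPM (-0.49, SE 0.04). In neither gene did the stages overlap. Sohlh1, a regulator of spermatogonial differentiation, fell by 0.74 (SE 0.07), and Prss50, a testis protease, by 1.34 (SE 0.08). The list medians were -0.07 in controls and -0.34 in Cre controls. Of 19 tested genes of undifferentiated spermatogonia 2 were called higher and 8 lower, and the other 9 did not pass. Lin28a fell by 0.55 (SE 0.06), Uchl1 by 0.54 (SE 0.05) and Zbtb16 by 0.39 (SE 0.05). Id4 rose by 0.80 (SE 0.10) and Etv5 by 0.35 (SE 0.08), while Gfra1, the receptor of the niche factor GDNF, changed by 0.23 (limma adjusted p 0.064).

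Early recombination genes did not move as a block. Of 13 genes of break formation and hotspots 1 was called higher and 7 lower, beside 18.2% and 22.5% of all tested genes. Prdm9, the methyltransferase that marks hotspots, went from 33.7, 33.5 and 22.9 CPM to 11.7, 11 and 13.1 CPM (-1.28, SE 0.14, limma adjusted p 2.5e-04). Zcwpw1, whose protein reads that mark, fell from 161, 162 and 123 CPM to 83, 81.3 and 72 CPM (-0.90, SE 0.05), and the break factors Ccdc36 and Rec114 fell by 1.15 (SE 0.08) and 1.04 (SE 0.14). In these genes every P16 library lay below every P14 library. Spo11, which cuts the DNA, stood at 18.2, 24.4 and 13 CPM and then at 21.7, 20.8 and 12.5 CPM, a change of -0.01 with overlapping libraries. The axis genes Hormad1 and Hormad2 changed by 0.21 and -0.04 and did not pass. Morc2b rose by 1.39 (SE 0.14).

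Chromosome pairing and repair genes showed a similar split. Of 12 genes of the synaptonemal complex and meiotic cohesin 1 was called higher and 5 lower, beside 18.2% and 22.5% of all tested genes. Rad21l, a meiotic cohesin subunit, went from 29.8, 31.5 and 28.4 CPM to 13.1, 14 and 15.9 CPM (-1.04, SE 0.09, limma adjusted p 1.1e-04), and the central element gene Syce2 fell by 0.74 (SE 0.05). The main structural genes Sycp1, Sycp2 and Sycp3 changed by -0.07, 0.20 and -0.13 and did not pass. Of 12 strand invasion genes 1 were called higher and 5 lower, with Dmc1, the meiotic recombinase, falling by 0.62 (SE 0.08) and Brca2 by 0.26 (SE 0.05). Of 13 tested crossover genes 2 were called higher and 5 lower. Msh5 fell from 24, 27.3 and 24.9 CPM to 12.6, 12 and 19 CPM (-0.81, SE 0.13, limma adjusted p 0.0014) and the X-linked Tex11 by 0.77 (SE 0.05). Msh4, the partner of Msh5, changed by 0.14 and did not pass, and the late crossover gene Mlh3 rose by 0.59 (SE 0.07). Of 9 genes that attach telomeres to the nuclear envelope, 3 were called higher (Spdya, Ccdc155 and Syne2) and 1 lower (Sun1). Without P14 library 2 the counts were 2 higher and 4 lower for the pairing list, 3 and 4 for strand invasion, 5 and 4 for crossovers and 5 and 0 for telomeres.

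DNA replication genes fell in nearly the whole list. Of 25 genes 0 were called higher and 22 lower, with a median of -0.49, beside 22.5% called lower among all tested genes. In 16 of the 25 every P16 library lay below every P14 library. Mcm5, a subunit of the replicative helicase, went from 189.7, 194 and 205 CPM to 102, 100.3 and 125 CPM (-0.85, SE 0.05, limma adjusted p 6.3e-05). Prim1, of the primase, fell by 0.83 (SE 0.08), and Orc1 and Cdc6, which load the helicase, by 0.80 (SE 0.07) and 0.73 (SE 0.09). The sliding clamp gene Pcna changed by -0.10, Mcm7 by 0.00 and Gins1 by 0.00, and these 3 did not pass.

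Histone supply fell as well. Of 27 replication-dependent histone genes 0 were called higher and 24 lower, with a median of -0.65. The linker histone gene Hist1h1a went from 1602, 1589 and 1441 CPM to 524, 602 and 741 CPM (-1.32, SE 0.10, limma adjusted p 8.7e-05). The summed level of the list went from 4568, 4857 and 4061 CPM to 2205, 2388 and 2598 CPM, so every P16 library was below every P14 library. Many histone genes are near copies of one another, and reads may be divided between them. Of 6 tested testis histone variants 1 was called higher and 3 lower. Their median was -0.55, beside 0.23 in controls and -0.02 in Cre controls. The testis linker histone gene Hist1h1t rose from 124, 176 and 99.9 CPM to 196, 243 and 204 CPM (0.72, SE 0.14), and the testis variant Hist1h2ba changed by -0.19 (limma adjusted p 0.19). In controls the medians of the DNA replication and replication-dependent histone lists were -0.05 and -0.10, and in Cre controls -0.24 and -0.34.

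Cell division genes were called in both directions, in shares near the 18.2% higher and 22.5% lower of all tested genes. Of 31 M-phase and spindle genes 7 were called higher and 9 lower (4 and 5 in the first kit alone). Ccnb2, a B-type cyclin, rose from 56.3, 68.4 and 51.7 CPM to 92.8, 105 and 79.3 CPM (0.65, SE 0.08, limma adjusted p 3.7e-04), and the kinase gene Aurka rose by 0.41 (SE 0.06). Ccna2, a cyclin of S phase and mitosis, fell from 80, 76.1 and 88.4 CPM to 45.9, 53.7 and 60.9 CPM (-0.61, SE 0.07), and the midzone kinesin gene Kif23 fell by 0.60 (SE 0.05). The stages did not overlap in either cyclin. The proliferation marker Mki67 changed by -0.05 and did not pass. Of 23 microtubule motor genes 6 were called higher and 5 lower, with the kinesin genes Kif9 at 1.09 (SE 0.13) and Kif17 at -0.74 (SE 0.13).

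Ribosomal protein genes fell by a small amount. Of 36 genes 2 were called higher and 34 lower, with a median of -0.27. Rplp2, of the ribosomal stalk, fell from 247, 252 and 290 CPM to 168, 173 and 197 CPM (-0.55, SE 0.04, limma adjusted p 6.7e-05). The 2 that rose were Rpl39l (0.52, SE 0.09) and Rpl10l (0.67, SE 0.11), testis paralogs of X-linked genes. The list median was -0.04 in controls and -0.15 in Cre controls.

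The m6A pathway changed by small amounts. Of 17 writers, erasers and readers 2 were called higher and 9 lower, beside 18.2% and 22.5% of all tested genes. The writer subunit gene Mettl14 fell by 0.35 (SE 0.06), the eraser gene Alkbh5 by 0.30 (SE 0.04), and the reader genes Ythdc1, Ythdf1 and Ythdf2 by 0.18, 0.18 and 0.17. Mettl3, the catalytic writer, changed by -0.08 and did not pass. Igf2bp3, whose protein stabilises bound RNAs, rose from 26, 27.5 and 25 CPM to 51.6, 56.7 and 42.1 CPM (0.92, SE 0.07, limma adjusted p 9.2e-05), with 0.40 in controls and 0.28 in Cre controls. The difference from them was 0.56 (SE 0.14) and did not pass (limma adjusted p 0.052). In the first kit alone 4 members were called lower, and without P14 library 2 the number was 5.

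Of 27 tested genes of the p53 response and apoptosis 1 was called higher and 8 lower, beside 18.2% higher and 22.5% lower among all tested genes. The other 18 did not pass. Cdkn1a, the classic p53 target, stood at 4.40, 4.02 and 6.42 CPM and then at 3.68, 4.10 and 7.29 CPM, a change of -0.01 with overlapping libraries. Bax, which opens the mitochondrial path of cell death, fell by 0.35 (SE 0.08) and the death receptor gene Tnfrsf10b by 0.54 (SE 0.13). The count of lower genes was 3 in the first kit alone and 4 without P14 library 2.

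Interferon-stimulated genes rose. Of 27 tested 17 were called higher and 0 lower, with a median of 0.54, beside 18.2% higher and 22.5% lower of all tested genes. Irf7, which amplifies the response, went from 5.33, 10.6 and 5.67 CPM to 12.9, 15.2 and 14.6 CPM (1.00, SE 0.22, limma adjusted p 0.0068), and Oasl2, an oligoadenylate synthetase relative, from 27.3, 38.6 and 24 CPM to 48.9, 55.7 and 57.2 CPM (0.86, SE 0.15, limma adjusted p 0.0019). P14 library 2 was the highest of the P14 libraries in the first kit for both. The count was 26 without that library and 7 in the first kit alone. It was 8 without library 3 of either stage and 10 without P16 library 2. With a filter of 5 CPM in at least 3 libraries, 13 of 17 were called higher. A low member can pass either filter through P16 alone, and such members add no weight. The median was -0.46 in controls and 0.70 in Cre controls, so the control types ran apart, and 0 members passed the test of the difference. Of 15 tested leukocyte markers 0 were called higher and 2 lower, and their summed level was 253, 202 and 186 CPM at P14 and 222, 219 and 196 CPM at P16. The part of leukocytes in the interferon result was not tested.

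The X chromosome ran apart from the autosomes. Spermatocytes shut down both sex chromosomes at pachytene, which is known as meiotic sex chromosome inactivation. Of 617 tested X-linked genes 225 (36.5%) were called lower and 28 (4.54%) higher, beside 22% and 18.8% of 14586 autosomal genes. The median change was -0.17 on the X and -0.03 on autosomes. X-linked genes held 2.72%, 2.59% and 2.86% of gene reads at P14 and 2.44%, 2.31% and 2.65% at P16, lower at P16 within each kit. The X median was -0.15 in controls and -0.27 in Cre controls. Rhox13, an X-linked germ cell gene, fell from 34.7, 37.1 and 20.7 CPM to 16.4, 16.8 and 14.2 CPM (-0.90, SE 0.11, limma adjusted p 4.5e-04).

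Among 12 factors of this silencing 3 were called higher and 5 lower, beside 18.2% and 22.5% of all tested genes. H2afx, the histone variant whose phosphorylated form coats the silenced chromosomes, went from 814, 933 and 1208 CPM to 366, 434 and 644 CPM (-1.05, SE 0.08, limma adjusted p 8.5e-05). Every P16 library lay below every P14 library. Brca1 fell by 0.48 (SE 0.05) and the histone methyltransferase gene Setdb1 by 0.32 (SE 0.04). The kinase gene Atr rose from 781, 908 and 473 CPM to 981, 1059.9 and 666 CPM (0.35, SE 0.07, limma adjusted p 0.0048), and the adaptor gene Mdc1 by 0.21 (SE 0.08), at the edge of the threshold.

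**Figure D4:**
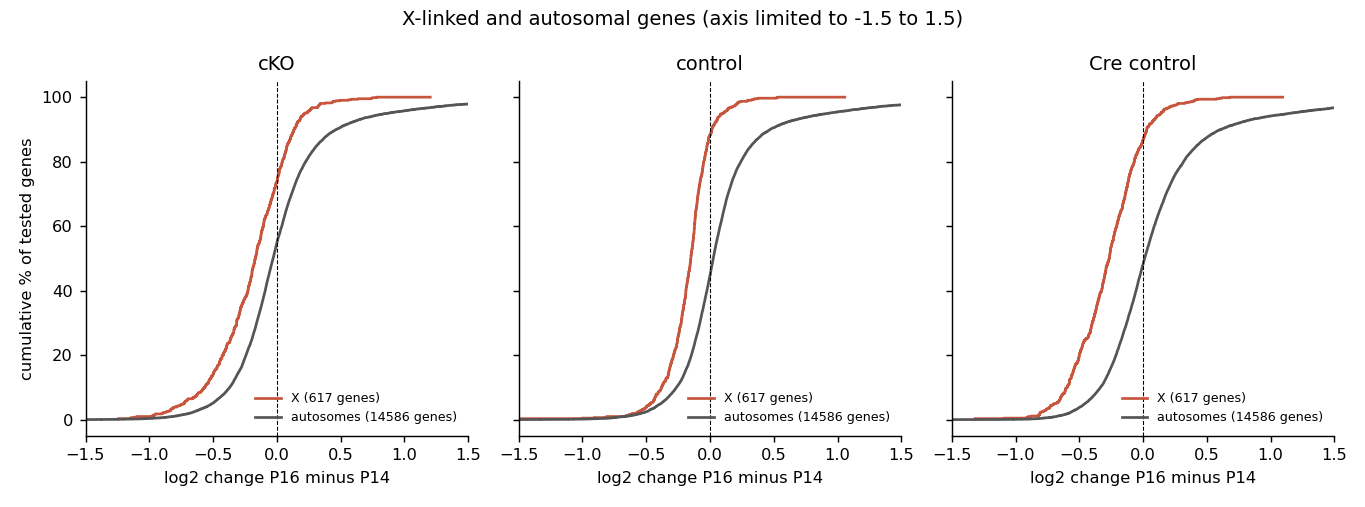
Cumulative share of tested genes by log2 change from P14 to P16, for X-linked and autosomal genes, in cKO (fit over both kits), controls and Cre controls. At the median the X curve lies to the left of the autosomal curve in all 3 panels, with cKO medians of -0.17 and -0.03.

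Markers of the somatic cells were counted by cell type, beside the 18.2% higher and 22.5% lower of all tested genes. Of 27 Sertoli cell genes 4 were called higher and 5 lower, shares near those, with a summed level of 8550, 7837 and 8223 CPM at P14 and 9013, 8239 and 8706 CPM at P16. Sox9 and Wt1, which define the cell, changed by 0.07 and -0.04 and did not pass. Amh, which Sertoli cells turn off as they mature, fell from 63.3, 49.9 and 98.1 CPM to 34.9, 28.9 and 41.2 CPM (-0.96, SE 0.12, limma adjusted p 4.5e-04), and Fshr rose by 0.37 (SE 0.06). Of 14 tested Leydig cell genes 1 were called higher and 2 lower, and of 16 myoid and stromal genes 0 were called higher and 7 lower, among them Col1a1 at -0.48 (SE 0.06) and Acta2 at -0.43 (SE 0.10). Of 11 endothelial genes 0 were called, and 0 of 2 tested epididymis genes. The 5 tested red blood cell genes were called lower (1 in the first kit alone), and their summed level was 87.3, 72.5 and 69.1 CPM at P14 and 24.1, 57.3 and 26.8 CPM at P16. The median of that list was -1.08, beside -1.55 in controls and -0.80 in Cre controls. The part of these shifts in the germ cell results was not tested.

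Of 300 tested lincRNAs 101 were called higher and 10 lower, with a median of 0.22, beside -0.04 for the 13738 protein-coding genes. The mitochondrial mRNAs had a median of 0.19, with 1 of 11 called, mt-Nd5 at 0.35 (SE 0.11). Mitochondrial genes held 11.3% to 13.5% of gene reads in the first kit and 0.679% to 0.813% in the second, and P14 library 2 was the lowest of the first-kit libraries.

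Where the cKO change differed from that of the control types was tested in a fit over all 16 libraries, each cKO library against controls of its own kit. It called 84 genes (0.55%) with a more positive and 140 (0.917%) with a more negative change in cKO, and 2825 genes had an unadjusted p under 0.05. These counts were not stable. Leaving out P14 library 1, 2 or 3 or P16 library 1 or 2 left 5, 9, 0, 3 and 2 more positive genes and 5, 5, 0, 4 and 2 more negative ones, while leaving out P16 library 3 gave 107 and 444. The first kit alone, with control mice only, gave 504 and 1340. Of the 28 differences given by name, 24, 24, 28, 24, 26 and 6 no longer passed without P14 library 1, 2 or 3 or P16 library 1, 2 or 3, and 27 no longer passed with a replicate block. The cKO change and this difference share the cKO libraries, so their values are given side by side.

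Among genes with a more positive change, Pif1 (ENSMUSG00000041064), a DNA helicase gene, went from 3.64, 2.67 and 1.37 CPM to 9.38, 8.36 and 5.31 CPM in cKO. Its change was 1.46 in cKO, -0.33 in controls and -0.13 in Cre controls, a difference of 1.74 (SE 0.21, limma adjusted p 0.0055). Prom1 (ENSMUSG00000029086), a gene of membrane protrusions, went from 1.86, 1.43 and 0.811 CPM to 8.95, 9.90 and 5.13 CPM, with 2.18 in cKO, 0.76 in controls and 0.85 in Cre controls (difference 1.38, SE 0.32, limma adjusted p 0.047). Osmr, a cytokine receptor gene, Depdc1a and the X-linked 1700080O16Rik rose by 0.78, 0.69 and 0.75 in cKO, and their changes were negative in both control types. A gene can meet the limit of 5 CPM in some group through the group where it is high, and such genes add no weight. The cKO means of Pif1, Prom1, Osmr and Depdc1a were 2.56, 1.37, 4.65 and 4.22 CPM at P14. Leaving out 1 cKO library ended the call in 1 of 6 fits for Pif1, in 5 for Prom1 and Depdc1a and in 6 for Osmr and 1700080O16Rik. The list members with a more positive change were Meioc, Syne2, mt-Nd5 and mt-Co1.

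Among genes with a more negative change, Prss50 (ENSMUSG00000048752) went from 94.7, 103 and 77.8 CPM to 33.5, 38.4 and 35.3 CPM in cKO. It changed by -1.34 in cKO, 0.08 in controls and -0.30 in Cre controls (difference -1.19, SE 0.16, limma adjusted p 0.0085). Smpd3 (ENSMUSG00000031906), a sphingomyelinase gene, went from 8.51, 10.9 and 9.91 CPM to 4.96, 3.89 and 4.63 CPM, with -1.04 in cKO, 0.37 in controls and 0.04 in Cre controls (difference -1.24, SE 0.19, limma adjusted p 0.018). The histone gene Hist1h4f, Mei1 and the blood group gene Rhd had differences of -1.23, -1.09 and -1.07. Leaving out 1 cKO library ended the call in 1 of 6 fits for Prss50, in 2 for Smpd3 and in 5 for Hist1h4f, Mei1 and Rhd. The meiotic list members in this direction were Mei1, Ccdc36 and Zcwpw1 of break formation, Syce2 of the central element, Stag3 of meiotic cohesin, and Msh5 and Rnf212b of crossing over. For Msh5 the values were -0.81 in cKO, 0.29 in controls and 0.14 in Cre controls. H2afx and Setdb1 of the silencing factors and the replication genes Mcm3, Mcm5 and Pold1 also had a more negative change. H2afx changed by -1.05 in cKO, 0.26 in controls and -0.17 in Cre controls. The other list members were Prss50, Bcl2l1, Rpl18 and Gm12260, of the testis histone variants.

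**Figure D5:**
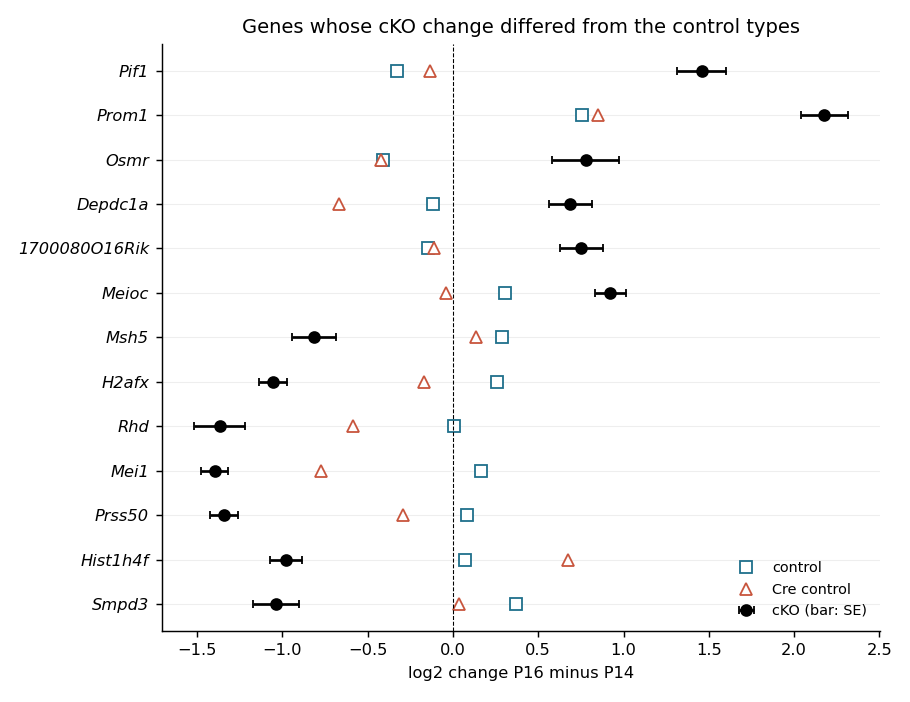
Log2 change from P14 to P16 in cKO (filled circle with its SE), controls (open square) and Cre controls (open triangle) for the 5 called protein-coding genes with the largest positive and the 5 with the largest negative difference, among those with a mean of at least 5 CPM in some group, and for Meioc, Msh5 and H2afx. In genes with a positive difference the cKO point lies right of both control types, and in those with a negative one left of both.

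The sets called in that test also differ in sequence makeup. The median GC content of GENCODE M21 transcripts was 44.8% for genes with a more positive change and 52.9% for those with a more negative one, beside 49.5% for all tested genes. Their median lengths were 5030 and 2620 bases, beside 3257. Genes called higher and lower within cKO had medians of 48.2% and 50.8% GC and of 3422 and 3264 bases. At least 99.3% of the genes of each set had a value. The part of GC content and length in these calls was not tested.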

How the data were processed

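Total RNA of whole testes was depleted of ribosomal RNA and sequenced, per the labels' protocols. The tools were Trim Galore, STAR, HTSeq and DESeq2, with the build GRCm39/mm39, per the submitters' processing notes as used here, which give no roles or settings. The deposited values are gene signal: as the values show, the authors divided read counts by 1 factor per column, separately in each table. Whole reads came back for 100% of values in all 20 columns (tolerance 0.02). The rows that name no gene were dropped. Libraries present in more than 1 table differed in 0 rows and were counted once.

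The 6 cKO libraries were scaled together with TMM factors (edgeR 4.0.16). Genes with at least 1 CPM in at least 3 libraries were tested on log2(CPM + 0.5) with limma 3.58.1 in R 4.3.3 (trend, kit as covariate, two-sided, Benjamini-Hochberg over all tested genes, threshold 0.05). The difference from the control types was fitted over all 16 libraries with a mean per kit and stage. GENCODE M21 gave names for 52081 of 55414 gene IDs. Its build, like that of the RefSeq promoters, is GRCm38, so no other coordinates are given. Each cKO library holds 14741293 to 26927274 reads on genes.

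The named genes were the YTHDC2 partners, the 8 largest rises and falls under the limits given with them, up to 6 called members per list with others where a role needed them, and the 5 called protein-coding genes with the largest differences in each direction, of at least 5 CPM in some group. The gene lists and members were chosen with earlier results of these data known. Alternatives were other pseudocounts, filters, scalings, edgeR, DESeq2 1.42.0, no kit term, the first kit alone, a replicate block and leaving out each library.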

Additional observations from a re-analysis of the deposited data

Results flagged for a closer look

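The genes given here are those named in the report whose change from P14 to P16 in cKO differed from that of the control types, by limma over all 16 libraries with an adjusted p under 0.05. Each value is the cKO change minus the control change on the log2 scale.

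The difference was positive for Pif1 (1.74), Prom1 (1.38), Osmr (1.32), Depdc1a (1.03) and 1700080O16Rik (0.94). These were the largest positive differences among called coding genes with a mean of at least 5 CPM in some group. The difference was also positive for Meioc (0.79), Syne2 (0.52), mt-Nd5 (0.72) and mt-Co1 (0.64). Among meiotic and testis genes it was negative for Prss50 (-1.19), Mei1 (-1.09), Ccdc36 (-1.0), Zcwpw1 (-0.67), Syce2 (-0.61), Stag3 (-0.53), Msh5 (-0.95) and Rnf212b (-0.64). Histone and chromatin genes with a negative difference were Gm12260 (-1.35), Hist1h4f (-1.23), H2afx (-1.06) and Setdb1 (-0.31). The remaining ones were Smpd3 (-1.24), Rhd (-1.07), Mcm5 (-0.59), Mcm3 (-0.33), Pold1 (-0.52), Bcl2l1 (-0.55) and Rpl18 (-0.29).

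Of these 28 differences, 4 still passed without P14 library 1, 4 without P14 library 2, 0 without P14 library 3, 4 without P16 library 1, 2 without P16 library 2 and 22 without P16 library 3. All 28 kept their direction in each of these fits.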

How the results depend on the processing

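Over all alternatives the cKO counts kept within 1.5 times of 2779 higher and 3444 lower genes, with these exceptions. Without the kit term 111 and 67 genes were called, and Ythdc2 (-0.58) no longer passed (limma adjusted p 0.467). The first kit alone called 1968 lower genes. Leaving out 1 library gave 1931 to 3346 higher and 2196 to 2775 lower genes, and -0.646 to -0.487 for Ythdc2. By edgeR's quasi-likelihood test 2919 and 3100 genes were called, and by DESeq2 2546 and 2414.

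The difference from the control types depended on most choices. The 84 more positive and 140 more negative genes became 504 and 1340 in the first kit alone, 52 and 83 by column sums without TMM, and 60 more negative by edgeR. Leaving out 1 library gave 0 to 107 and 0 to 444.

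Replicate numbers recur across stages. Libraries 1 and 2 of the first kit deviated together with r = 0.19 by number. The crossed value of -0.19 follows from it by construction, since a stage has only 2 such libraries. The third pair was alone in its kit, so pairing was not shown. With a replicate block 3088 and 3670 genes were called, Ythdc2 stayed at -0.58 (limma adjusted p 3.9e-04), and the difference left 0 more positive and 1 more negative gene.

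Some named genes that did not pass lay so near 0 that their sign changed, and none of them passed there either. In the first kit alone Mcm7 was at 0.0541, Sox9 at -0.00393, Spag6 at 0.0706, Spo11 at 0.0268 and Wt1 at 0.00297. Cdkn1a was at 0.00423 by edgeR and 0.00887 by DESeq2, Mcm7 at 0.0144 by edgeR and 0.0201 by DESeq2, and Spo11 at 0.00484 by DESeq2. By DESeq2 size factors Mcm7 was at 0.00528 and Spo11 at 0.000827. Leaving out 1 library gave -0.102 to 0.0536 for Cdkn1a, -0.0986 to 0.15 for Gins1, -0.118 to 0.0986 for Hormad2, -0.0704 to 0.0526 for Mcm7, -0.109 to 0.028 for Mki67, -0.0177 to 0.165 for Sox9, -0.233 to 0.0614 for Spag6, -0.133 to 0.149 for Spo11, -0.141 to 0.0808 for Sycp1, -0.199 to 0.0296 for Sycp3 and -0.0268 to 0.0535 for Xrn1. The causes were not tested. List counts without P14 library 2 were chosen after seeing the data.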
